A study of Mus musculus with 4 samples.

Results

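Complex I (NADH:ubiquinone oxidoreductase) was followed through the genes whose symbol starts with *Nduf*, which name its nuclear-encoded subunits (*Ndufa*, *Ndufab*, *Ndufb*, *Ndufc*, *Ndufs* and *Ndufv*) and a group of its assembly factors (*Ndufaf*). The count table held 44 such genes among 24062, of which 37 were subunits and 7 assembly factors. *Ndufa4l2* and pseudogene symbols were left out of this set. The retinas were taken at E13.5 (E for embryonic day) from mice of a C57BL/6 129 mixed strain. The WT libraries came from wild type embryos and the Nrf1-CKO libraries from embryos in which both *Nrf1* alleles are floxed and the Six3-Cre transgene deletes exon 4 in proliferating retinal progenitor cells, starting in the central retina. There were 2 libraries of each genotype, each from pooled retinas of several littermates, so that a library stands for many embryos and for the whole tissue. Of the 44 genes, 43 passed the filter on low counts and were tested, namely 36 subunits and all 7 assembly factors.

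Complex I is the entry point of the respiratory chain. Its N module oxidizes NADH, its Q module passes the electrons to ubiquinone, and its membrane arm pumps protons across the inner mitochondrial membrane. The catalytic core subunits carry the flavin, the iron-sulfur clusters and the ubiquinone site, the supernumerary (accessory) subunits surround the core, and assembly factors help to build the complex but are absent from the finished enzyme. Nrf1 is a transcription factor that binds a GC-rich palindromic element and is known as a regulator of nuclear genes of mitochondrial respiration. The core subunits of the membrane arm are encoded by mitochondrial DNA and were not analysed here. The comparison asks how the nuclear genes of complex I stood in retinas in which *Nrf1* was deleted.

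The regions around the start sites are shown for the genes on which the results turn. RefSeq windows on GRCm38.p6, from 250 bases before to 50 bases after each annotated start, were found for 39 of the 44 genes. They were searched on both strands for the Nrf1 element, in an exact form (GCGCA, then T, then GCGC) and in a relaxed form in which the base between GCGCA and GCGC is free. The motifs were chosen after the data had been seen. In the sequences, capitals mark each match of the relaxed element and the strand is that of the gene. The 9 genes with a match are given first, as 30 bases around it (the 1 farthest upstream where a window held several).
Ndufa8, chr2:36049349-36049378, minus strand: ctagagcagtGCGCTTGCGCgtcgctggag
Ndufaf4, chr4:24897960-24897989, plus strand: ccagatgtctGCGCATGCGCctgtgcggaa
Ndufs6, chr13:73328479-73328508, minus strand: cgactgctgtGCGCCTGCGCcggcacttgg
Ndufa11, chr17:56717692-56717721, plus strand: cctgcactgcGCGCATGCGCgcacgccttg
Ndufa5, chr6:24527697-24527726, minus strand: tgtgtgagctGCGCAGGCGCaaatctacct
Ndufa6, chr15:82354249-82354278, minus strand: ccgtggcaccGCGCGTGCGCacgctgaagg
Ndufb4, chr16:37654540-37654569, minus strand: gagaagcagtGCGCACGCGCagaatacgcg
Ndufaf5, chr2:140170652-140170681, plus strand: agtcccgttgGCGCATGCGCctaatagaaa
Ndufs5, chr4:123718265-123718294, minus strand: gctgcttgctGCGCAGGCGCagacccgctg

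For *Ndufaf4*, *Ndufb8* and *Ndufa1*, the whole 250 bases before the start are shown, because they stand for the lowest assembly factor, a subunit that was about as low, and the single member that was higher at an adjusted p of at most 0.05. The match of *Ndufaf4* starts 113 bases before the start site. *Ndufb8* and *Ndufa1* held no match in their windows.
Ndufaf4, chr4:24897833-24898082, plus strand: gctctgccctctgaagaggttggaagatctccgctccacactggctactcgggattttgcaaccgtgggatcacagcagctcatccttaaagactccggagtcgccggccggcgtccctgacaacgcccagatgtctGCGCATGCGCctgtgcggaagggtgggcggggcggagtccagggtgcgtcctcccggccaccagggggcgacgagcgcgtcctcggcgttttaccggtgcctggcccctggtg
Ndufb8, chr19:44555443-44555692, minus strand: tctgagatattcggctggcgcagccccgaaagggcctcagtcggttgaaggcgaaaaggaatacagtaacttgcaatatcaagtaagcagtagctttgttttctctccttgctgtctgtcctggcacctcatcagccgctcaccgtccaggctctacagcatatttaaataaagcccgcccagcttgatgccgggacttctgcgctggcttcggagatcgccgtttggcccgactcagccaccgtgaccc
Ndufa1, chrX:37191239-37191488, minus strand: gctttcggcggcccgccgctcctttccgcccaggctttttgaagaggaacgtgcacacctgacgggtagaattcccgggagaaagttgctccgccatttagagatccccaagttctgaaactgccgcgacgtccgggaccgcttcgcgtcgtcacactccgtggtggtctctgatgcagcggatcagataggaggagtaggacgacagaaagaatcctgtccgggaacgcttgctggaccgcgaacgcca

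The libraries held 74577660 to 85933945 reads counted on genes. *Nrf1* itself had 103 and 105 CPM (read counts scaled to a common library size with TMM factors) in WT replicates 1 and 2 and 103 and 100 CPM in Nrf1-CKO replicates 1 and 2, a log2 fold change of -0.03 (SE 0.07, adjusted p = 0.794 by the edgeR test described next). The genotypes overlapped, and a count over the whole gene does not check a label that rests on 1 deleted exon. Markers of other cells moved with the genotype. The summed level of 11 lens markers was 162 and 438 CPM in WT and 9270 and 3761 CPM in Nrf1-CKO, with all 11 called higher. The 11 retinal ganglion cell markers summed to 1705 and 1940 CPM in WT and 676 and 516 CPM in Nrf1-CKO (9 lower and 1 higher), and the 11 retinal progenitor markers, which define the labelled tissue, to 8084 and 8651 against 6305 and 6893 CPM (2 lower). All 8 macrophage and microglia markers, 5 of 7 pigment epithelium, 4 of 6 endothelium, 4 of 5 periocular mesenchyme and 2 of 6 erythroid markers were also called higher, with 1 endothelial marker lower. The endothelial sum overlapped, with 255 and 259 CPM in WT and 258 and 247 CPM in Nrf1-CKO, whereas the other lists of the last sentence had higher sums in both Nrf1-CKO libraries. Of all genes tested, 8.04% were called lower and 12.8% higher. In bulk tissue, fewer cells of a type and less RNA per cell cannot be told apart. The part of these markers in the values of the *Nduf* genes was not tested.

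Most complex I genes had log2 fold changes slightly below 0 in Nrf1-CKO retinas. In the edgeR fit used for the results, with TMM scaling and genotype as the only term, no member reached the fold that the study required. *Ndufa1* reached it under some alternatives, among them upper-quartile scaling (0.52) and the replicate number as a block (0.51). Calls used the limits of the study, a 1.4-fold or larger change together with an adjusted p no higher than 0.2, with p-values from edgeR (quasi-likelihood) adjusted over all 15762 genes tested. At these thresholds 0 of the 43 members were called, against 8.04% of all genes tested called lower and 12.8% called higher. At an unadjusted p below 0.05, 14 members were lower and 1 higher in the edgeR test, against 16.9% and 17.9% of all genes tested. DESeq2 called 1 member, *Ndufa1*, and limma on the deposited normalized values called 0.

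Without a minimum fold, at an adjusted p of at most 0.05, 6 members were lower, against 10.9% of all genes, and 1 was higher, against 11.9%. The lower genes were *Ndufa8*, *Ndufaf4*, *Ndufb8*, *Ndufv3*, *Ndufs4* and *Ndufa3*, and the higher gene was *Ndufa1*. With DESeq2, upper-quartile scaling, no filter on low counts or limma on the deposited values, *Ndufa3* did not pass and the other 6 did. Which genes passed also depended on the libraries kept. A fit without 1 library leaves 1 library in that genotype, so the spread of a gene comes from the other genotype only. Members can fail to pass for that reason alone. *Ndufb8* and *Ndufa1* were the 2 members that remained without WT replicate 1, and *Ndufa8* and *Ndufaf4* the 2 without WT replicate 2, whereas 6 members passed without Nrf1-CKO replicate 1 and 7 without Nrf1-CKO replicate 2. No member passed in all 4 of these fits.

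The log2 fold change was below 0 in 37 of the 43 members, against 49.9% of all genes tested, and above 0 in 6, against 50.1%. It was below 0 in 32 members with upper-quartile scaling, which moved the median of all genes to 0.0403, and in 31 without Nrf1-CKO replicate 1. Both Nrf1-CKO libraries lay below both WT libraries for 25 members, against 31.6% of all genes, and above them for 2 members (*Ndufa13* and *Ndufa1*), against 30.9%. The libraries of the genotypes overlapped for the other 16. The median log2 fold change of the members was -0.13, and that of all genes tested 0.0007. The members ranged from -0.44 (*Ndufa8*) to 0.48 (*Ndufa1*), with an SD across genes of 0.161, against 0.800 across all genes tested. The SE of single genes reached 0.28 among members and 1.92 among all genes tested, which include genes with few reads. The part of this in the spreads was not tested. In the edgeR fit with TMM scaling, a change of at least 1.4-fold in either direction, whatever its p, was seen in 0 of the 43 members and in 28.0% of all genes, with *Ndufa1* just under this limit there and just over it by DESeq2 (0.49). Summed over the 44 genes, complex I transcripts amounted to 2131 and 2100 CPM in WT replicates 1 and 2 and to 1881 and 1991 CPM in Nrf1-CKO replicates 1 and 2. The sum was thus lower in both Nrf1-CKO libraries, with replicate 1 the lowest.

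**Figure D1:**
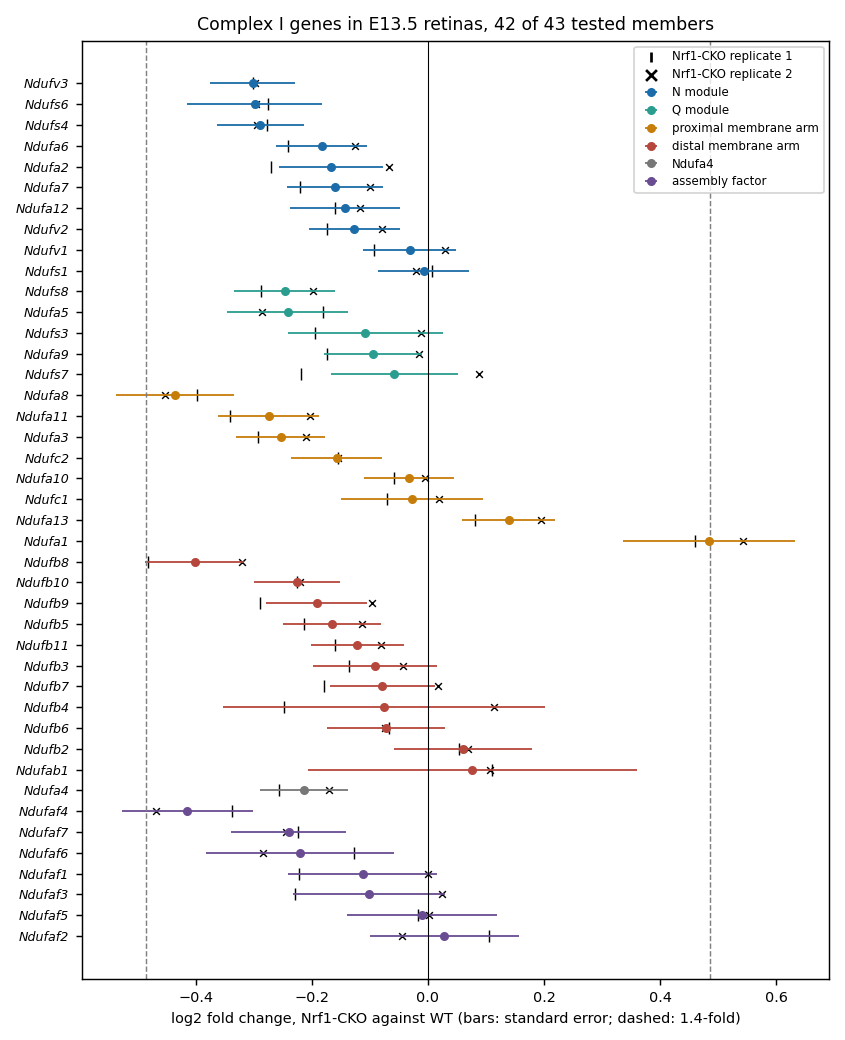
Log2 fold changes (x axis, Nrf1-CKO against WT) of 42 of the 43 tested complex I genes (y axis), grouped by role, with bars for the standard error and small marks for each Nrf1-CKO library against the WT mean. The points run from -0.44 to 0.48, 37 of 42 lie below 0, and no point passes the dashed lines at a fold of 1.4. The small mark of Nrf1-CKO replicate 2 for Ndufa1 lies beyond the line, at 0.54.

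In the N module, part of the arm that reaches into the matrix, all 10 members had a log2 fold change below 0 with TMM scaling (with upper-quartile scaling *Ndufs1* and *Ndufv1* were above it), with a median of -0.16, and 2 passed an adjusted p of 0.05, against 49.9% of all genes below 0 and 10.9% lower at that limit. *Ndufv3*, a supernumerary subunit of the N module, had 78.7 and 79.7 CPM in WT replicates 1 and 2 and 64.2 and 64.3 CPM in Nrf1-CKO replicates 1 and 2. Both mutant libraries were below both WT libraries, and the level was 81.1% of the WT mean, a log2 fold change of -0.30 (SE 0.07, adjusted p = 0.0174 from edgeR). *Ndufs4*, whose loss in mice and humans causes a Leigh-like disease, had 70.5 and 67.4 CPM in WT and 56.8 and 56.1 CPM in Nrf1-CKO. The groups did not overlap here either (log2 fold change -0.29, SE 0.07, adjusted p = 0.0238 from edgeR).

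The core subunits of the N module were closer to 0. *Ndufs1*, which carries iron-sulfur clusters, had 95.3 and 88.2 CPM in WT and 92.1 and 90.4 CPM in Nrf1-CKO (log2 fold change -0.01, SE 0.08, adjusted p = 0.959 from edgeR). *Ndufv1*, which binds the flavin and NADH, had 85.9 and 82.1 CPM in WT and 78.7 and 85.7 CPM in Nrf1-CKO (log2 fold change -0.03, SE 0.08, adjusted p = 0.827 from edgeR). *Ndufv2*, its iron-sulfur partner, had 125 and 118 CPM in WT and 108 and 115 CPM in Nrf1-CKO (log2 fold change -0.13, SE 0.08, adjusted p = 0.295 from edgeR). The libraries overlapped for *Ndufs1* and *Ndufv1*. For *Ndufv2* they did not, but the difference did not pass the test.

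In the Q module, 5 of 6 members had a log2 fold change below 0, with a median of -0.10, and none passed an adjusted p of 0.05, against 49.9% of all genes below 0 and 10.9% lower and 11.9% higher at that limit. *Ndufs3*, a structural core subunit, had 13.4 and 11.8 CPM in WT and 10.9 and 12.4 CPM in Nrf1-CKO (log2 fold change -0.11, SE 0.13, adjusted p = 0.626 from edgeR). The genotypes overlapped. *Ndufs7*, which holds the last iron-sulfur cluster before ubiquinone, had 40.9 and 42.7 CPM in WT and 35.9 and 44.4 CPM in Nrf1-CKO (log2 fold change -0.06, SE 0.11, adjusted p = 0.757 from edgeR). *Ndufs8*, a further iron-sulfur subunit, had 43.6 and 40.3 CPM in WT and 34.3 and 36.5 CPM in Nrf1-CKO (log2 fold change -0.25, SE 0.09, adjusted p = 0.0758 from edgeR). For *Ndufs7* the 2 Nrf1-CKO libraries lay on either side of both WT libraries, and for *Ndufs8* both lay below them.

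Taken as a group, the 7 nuclear core subunits had a median of -0.06 on the log2 scale, the lowest being *Ndufs8* at -0.25, and their genotypes overlapped in 5 of 7. The 28 tested supernumerary subunits (without *Ndufa4*) had a median of -0.16, and overlapped in 7. Over all genes tested, the libraries of the genotypes overlapped in 37.5%. All 6 subunits that passed an adjusted p of 0.05 were in the larger, supernumerary group, 5 lower and 1 higher. Over all genes tested, 10.9% were lower and 11.9% higher at that limit. The difference between core and supernumerary subunits was not tested.

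The membrane arm held the members farthest from 0. In its proximal part, 6 of 8 tested members had a log2 fold change below 0, with a median of -0.09. *Ndufa8*, a supernumerary subunit on the side of the intermembrane space, spans 36036326 to 36049406 on chromosome 2 of GRCm38. It had 2443 and 1876 reads in WT and 1666 and 1595 in Nrf1-CKO, or 27.9 and 25.3 against 20.1 and 19.3 CPM. Both Nrf1-CKO libraries were below both WT libraries, at 73.9% of the WT mean (log2 fold change -0.44, SE 0.10, adjusted p = 0.0151 from edgeR). *Ndufa3*, a small single-pass membrane subunit, had 55.8 and 57.9 CPM in WT and 46.3 and 49.1 CPM in Nrf1-CKO (log2 fold change -0.25, SE 0.08, adjusted p = 0.0449 from edgeR).

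*Ndufa1*, a small membrane subunit encoded on the X chromosome from 37187588 to 37191163, had the highest log2 fold change of the members. It had 3253 and 1924 reads in WT and 3564 and 3758 in Nrf1-CKO, or 37.1 and 25.9 against 42.9 and 45.4 CPM. Both Nrf1-CKO libraries were above both WT libraries, but the WT libraries lay far apart, at 31.5 ± 7.92 CPM (SD, n = 2), and the Nrf1-CKO libraries close together, at 44.2 ± 1.78 CPM. The log2 fold change was 0.48 (SE 0.15, adjusted p = 0.0465 from edgeR), just under the log2 value of 0.485 that the minimum fold of 1.4 stands for. It was 0.77 without WT replicate 1 and 0.25 without WT replicate 2, each from a fit with 1 WT library left. *Ndufa13*, also known as the cell death regulator GRIM-19, had 73.5 and 69.3 CPM in WT and 75.5 and 81.7 CPM in Nrf1-CKO (log2 fold change 0.14, SE 0.08, adjusted p = 0.263 from edgeR).

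In the distal part of the membrane arm, 9 of 11 members had a log2 fold change below 0, with a median of -0.09. *Ndufb8*, a supernumerary subunit on chromosome 19 from 44548572 to 44555440 that is widely used as a marker of assembled complex I, had 6838 and 6132 reads in WT and 4768 and 5318 in Nrf1-CKO, or 78.1 and 82.7 against 57.4 and 64.3 CPM. The groups did not overlap, and the level was 75.7% of the WT mean (log2 fold change -0.40, SE 0.09, adjusted p = 0.00947 from edgeR). *Ndufab1*, the mitochondrial acyl carrier protein, had 2.49 and 4.44 CPM in WT and 3.65 and 3.64 CPM in Nrf1-CKO (log2 fold change 0.08, SE 0.28, adjusted p = 0.881 from edgeR). Its Nrf1-CKO libraries lay between the WT libraries. *Ndufa4*, now counted with cytochrome c oxidase, was placed in no module but stayed among the 36 tested subunits, whose median is -0.13 with or without it. It had 137 and 133 CPM in WT and 113 and 120 CPM in Nrf1-CKO (log2 fold change -0.21, SE 0.08, adjusted p = 0.0782 from edgeR).

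None of the subunits not described singly passed an adjusted p of 0.05. In the N module these ran from -0.18 (*Ndufa6*) to -0.14 (*Ndufa12*) on the log2 scale, with *Ndufa2* and *Ndufa7* between them. In the proximal membrane arm *Ndufc2* stood at -0.16, and *Ndufa10* and *Ndufc1* at -0.03 each. In the distal membrane arm the range was from -0.23 (*Ndufb10*) to 0.06 (*Ndufb2*), with *Ndufb3*, *Ndufb5*, *Ndufb6*, *Ndufb7*, *Ndufb9* and *Ndufb11* within it.

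Of the 7 assembly factors, 6 had a log2 fold change below 0 (*Ndufaf5* not with upper-quartile scaling), and 1, *Ndufaf4*, passed an adjusted p of 0.05, against 10.9% of all genes lower at that limit. *Ndufaf4*, which acts in assembling the Q module, lies on chromosome 4 from 24898083 to 24905001 and had 2922 and 2079 reads in WT and 2003 and 1818 in Nrf1-CKO, or 33.4 and 28.0 against 24.1 and 21.97 CPM. Both Nrf1-CKO libraries were below both WT libraries, at 75.1% of the WT mean (log2 fold change -0.41, SE 0.11, adjusted p = 0.0298 from edgeR). Its log2 fold change was -0.28 without WT replicate 1 and -0.53 without WT replicate 2, each from a fit with 1 WT library left.

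The other assembly factors did not pass. *Ndufaf7*, a mitochondrial protein methyltransferase, had 23.1 and 22.2 CPM in WT and 19.3 and 19.0 CPM in Nrf1-CKO (log2 fold change -0.24, SE 0.10, adjusted p = 0.121 from edgeR). *Ndufaf6* had 6.47 and 6.85 CPM in WT and 6.05 and 5.38 CPM in Nrf1-CKO (log2 fold change -0.22, SE 0.16, adjusted p = 0.380 from edgeR). In both genes the Nrf1-CKO libraries lay below the WT libraries. *Ndufaf3*, a partner of *Ndufaf4* in early assembly, had 13.9 and 15.1 CPM in WT and 12.3 and 14.8 CPM in Nrf1-CKO (log2 fold change -0.10, SE 0.13, adjusted p = 0.640 from edgeR). *Ndufaf5*, which hydroxylates the *Ndufs7* protein, had 10.7 and 9.80 CPM in WT and 10.1 and 10.2 CPM in Nrf1-CKO (log2 fold change -0.01, SE 0.13, adjusted p = 0.966 from edgeR). *Ndufaf2*, a late-acting factor, had 14.6 and 12.7 CPM in WT and 14.7 and 13.2 CPM in Nrf1-CKO (log2 fold change 0.03, SE 0.13, adjusted p = 0.903 from edgeR). The genotypes overlapped for these 3 genes and for *Ndufaf1*, whose log2 fold change was -0.11. Exons of *Ndufaf2* overlap those of another annotated gene over 65.6% of their length, and since the sources used here do not state strand-specific counting, its reads are uncertain.

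**Figure D2:**
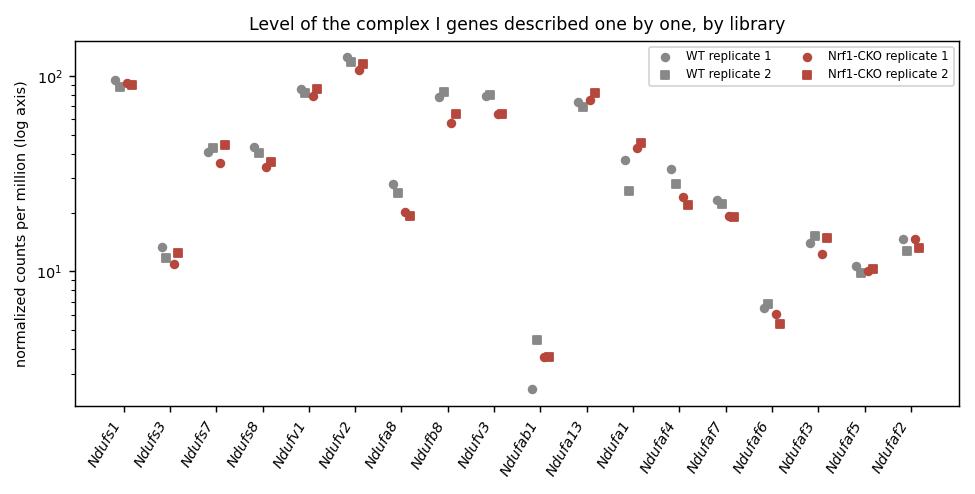
Normalized level (CPM, log axis) in each of the 4 libraries for 6 core subunits and for the subunits and assembly factors with the lowest and highest log2 fold changes, WT in grey and Nrf1-CKO in red, circles for replicate 1 and squares for replicate 2. Red lies below grey for Ndufa8, Ndufb8, Ndufv3 and Ndufaf4, and for Ndufa1 the WT libraries are 37.1 and 25.9 CPM under Nrf1-CKO libraries at 42.9 and 45.4 CPM.

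Subunits and assembly factors had medians close to each other. The median log2 fold change was -0.13 for 36 subunits and -0.11 for 7 assembly factors, a difference of -0.02. Taken against the WT mean, the difference was 0.04 in Nrf1-CKO replicate 1 and -0.03 in replicate 2, so its sign was not the same in both libraries. The subunit median itself was -0.19 in replicate 1 and -0.08 in replicate 2, and that of the assembly factors -0.22 and -0.05. Both classes were therefore farther below WT in Nrf1-CKO replicate 1. This library also had the higher lens marker sum, the highest share of alignments outside annotated genes (19.7%, against 16.7% to 17.5% in the others) and the lowest share of alignments that were not unique (54.6%, against 57.2% to 58.0%), and the part of these in the medians was not tested. No test was made of the difference, since genes of 1 complex are not replicates.

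Per length of transcript, most subunits stood above the assembly factors. The WT mean in CPM per kilobase of the principal transcript had a median of 50.3 over the 36 tested subunits and 9.77 over the assembly factors. The subunits ranged from 0.995 (*Ndufab1*) to 221 (*Ndufa4*) CPM per kilobase, and the assembly factors from 6.16 (*Ndufaf6*) to 20.2 (*Ndufaf2*). In Nrf1-CKO, the medians were 46.6 for subunits and 9.06 for assembly factors.

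Several subunits share sequence with other genes, and some of these had low values per length. *Ndufs5*, a subunit of the intermembrane space side, had 1 and 0 reads in WT and 0 and 0 in Nrf1-CKO and was not tested. A count of 0 allows up to 3 reads per library, and no fold was computed. Of its 100-base windows, 19.8% occur unchanged in *BC002163*, which had 2106 and 1663 reads in WT and 1708 and 1592 in Nrf1-CKO (log2 fold change -0.22, SE 0.10, adjusted p = 0.159 from edgeR). Reads of this pair cannot be assigned here with certainty, so the level of *Ndufs5* is uncertain. *Ndufb4* shares 33.4% of its windows with *Ndufb4c* and had 250, 169, 172 and 232 reads in WT replicates 1 and 2 and Nrf1-CKO replicates 1 and 2, with an SE of 0.28 on a log2 fold change of -0.08. For *Ndufab1*, 9.50% of windows are shared with a pseudogene and other copies. *Ndufs3* (19.9%) and *Ndufa12* (17.7%) share windows with predicted genes. For *Ndufb6* (28.2%) and *Ndufa13* (24.0%) the shared windows lie in an overlapping gene, and *Ndufb9* (17.0%), *Ndufb5* (11.9%) and *Ndufb8* (6.02%) likewise share windows with a gene that overlaps them. The values of these genes are uncertain to that extent.

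**Figure D3:**
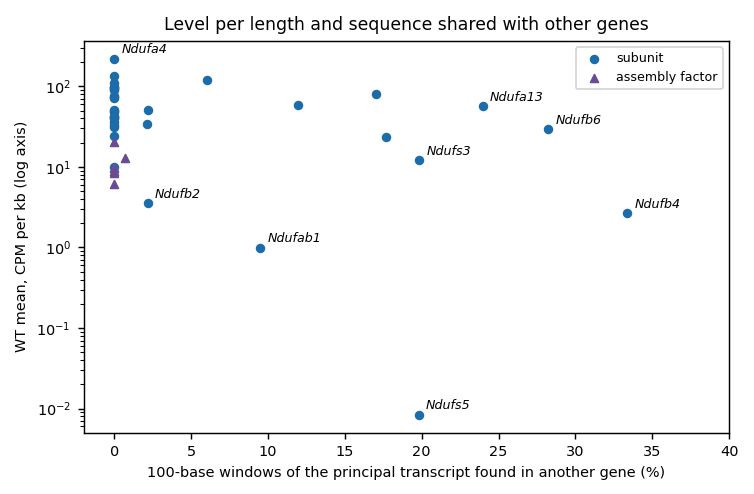
WT level per transcript length (y axis, CPM per kilobase, log axis) against the percentage of 100-base windows of the principal transcript that also occur in another gene (x axis), for subunits (circles, 1 not shown) and 7 assembly factors (triangles). Ndufs5 lies far below all others, Ndufb4 has the highest shared percentage at 33.4%, and the assembly factors sit between 6.16 and 20.2.

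Members with an Nrf1 element near the start had a lower median than those without. The relaxed element was found in 9 of the 39 members with a window, 23.1%, compared with 4.60% of all 32851 RefSeq windows and 10.1% of the tested genes that had a window. The exact element was found in 3 members (*Ndufa11*, *Ndufaf4* and *Ndufaf5*) and in 0.971% of all windows, or 2.06% of the tested genes that had a window. Of the 9, 8 were tested. With TMM scaling and all libraries kept, all 8 had a log2 fold change below 0, with a median of -0.26, from -0.44 (*Ndufa8*) to -0.01 (*Ndufaf5*). *Ndufaf5* was above 0 with upper-quartile scaling (0.0292) and without WT replicate 1 (0.0566) or Nrf1-CKO replicate 1 (0.0001). The 30 tested members with a window but no match had a median of -0.11, from -0.40 (*Ndufb8*) to 0.48 (*Ndufa1*). Among the 10 lowest members with a window, 5 held a match (*Ndufa8*, *Ndufaf4*, *Ndufs6*, *Ndufa11* and *Ndufa5*), and among the other 28 it was 3. The ranges overlapped widely, and the difference was not tested, since the motif and the members were chosen with results known.

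The values are also given by library and for genes outside complex I. Against the WT mean, members with a match had a median of -0.26 in Nrf1-CKO replicate 1 and -0.24 in replicate 2, and members without a match -0.18 and -0.06. Over all tested genes with a window, the median log2 fold change was -0.13 for the 1177 with a match, with 71.9% below 0, and 0.02 for the 10425 without a match, with 47.6% below 0. Taking the window of each gene with the highest GC content, genes with a match were richer in GC over all tested genes, with medians of 65.0% and 61.3%, and less so among members, with 60.3% and 59.5%. For genes with 55% to 70% GC in that window, the medians were -0.13 for 752 genes with and 0.01 for 5810 genes without a match, and -0.24 for 7 members with and -0.09 for 23 members without.

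The place of the element varied. In *Ndufa8* and *Ndufs6* it starts 30 and 16 bases before the start site, in *Ndufa11* 60 bases and in *Ndufs5* 98 bases before it, and in *Ndufaf5* and *Ndufa6* it lies 17 and 24 bases after it. *Ndufb4* holds 3 matches. *Ndufs6*, a zinc-binding subunit of the N module, had 19.9 and 17.3 CPM in WT and 15.2 and 15.0 CPM in Nrf1-CKO (log2 fold change -0.30, SE 0.12, adjusted p = 0.101 from edgeR). *Ndufa11*, a membrane subunit that contacts complex III in supercomplexes, had 50.2 and 54.6 CPM in WT and 41.2 and 45.4 CPM in Nrf1-CKO (log2 fold change -0.27, SE 0.09, adjusted p = 0.0525 from edgeR). In both genes the Nrf1-CKO libraries were below the WT libraries without passing 0.05.

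**Figure D4:**
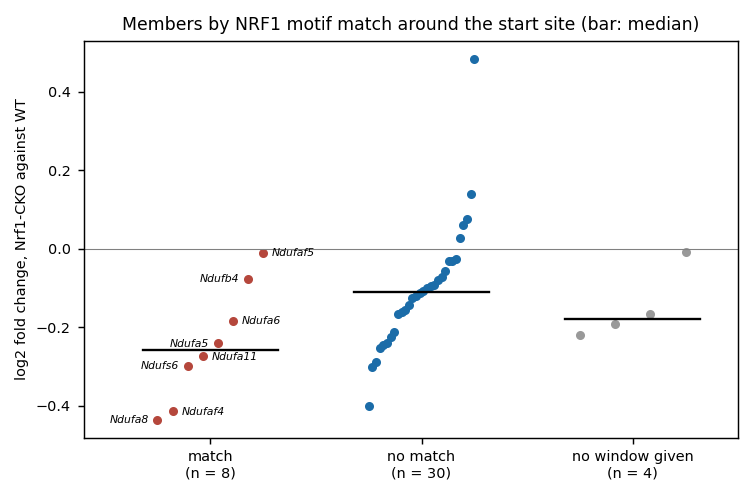
Log2 fold change (y axis, Nrf1-CKO against WT) of each tested complex I gene, by whether its window around the start site held the relaxed Nrf1 element, with a bar at the median. The 8 genes with a match have a median of -0.26, the 30 without -0.11, and 4 without a window are shown apart.

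Other elements were searched in the same windows on both strands. The YY1 element AAGATGGC was found in 7 members (*Ndufa3*, *Ndufa9*, *Ndufb8*, *Ndufc1*, *Ndufs4*, *Ndufs6* and *Ndufs7*), against 2.75% of all windows and 4.58% of the tested genes with a window, always starting 23 to 39 bases after the start site. For these 7 the median log2 fold change was -0.25 and the 31 without it -0.12, whereas over all tested genes the medians were -0.02 and 0.00. The ETS element CCGGAAGT was found in 1 member, *Ndufs3*, against 3.89% of all windows and 7.84% of the tested genes with a window. *Ndufs6* held both the Nrf1 and the YY1 element. A match is a description of letters and not of binding.

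In a list of other assembly genes without an *Nduf* symbol, values lay as often above 0 as below it. Of the 12 that were found in the table, 6 had a log2 fold change below 0 and 6 above, with a median of 0.00, and 0 were called at the thresholds of the study. By edgeR, 1 was lower at an unadjusted p below 0.05 and 0 were higher, against 16.9% and 17.9% of all genes tested. The 1 was *Lyrm2*, named here after its value was seen, which had 38.8 and 37.2 CPM in WT and 29.8 and 32.1 CPM in Nrf1-CKO (log2 fold change -0.30, SE 0.09, adjusted p = 0.0392 from edgeR). *1810043H04Rik*, the older symbol of *Ndufaf8* and so outside the set, was not among the 12 either. It had 434 and 486 reads in WT and 612 and 644 in Nrf1-CKO (log2 fold change 0.40, SE 0.18, adjusted p = 0.152 from edgeR), with both Nrf1-CKO libraries above both WT libraries.

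The other respiratory complexes were set beside complex I. Of 46 nuclear genes of complexes II to V, 43 were tested, 31 had a log2 fold change below 0, and the median was -0.05. At the thresholds of the study, 1 was called lower (*Cox4i2*, log2 fold change -1.69) and 2 were called higher (*Cox6a2* and *Cox6b2*), against 8.04% and 12.8% of all genes tested. *Cox6a2* was near the floor, with 5 and 0 reads in WT and 52 and 17 in Nrf1-CKO (log2 fold change 3.72, SE 1.13), so its fold is poorly known. *Cox6b2* had 464 and 502 reads in WT and 723 and 920 in Nrf1-CKO (log2 fold change 0.72, SE 0.18). The SD across the tested genes of complexes II to V was 0.664, 0.211 without *Cox6a2* and *Cox4i2*, and 0.174 without all 3 called genes, beside 0.161 in complex I. The lists were not built alike. *Cox4i2* and *Cox6a2* stayed in, whereas *Ndufa4l2*, which was called lower (log2 fold change -1.77), was left out of the complex I set. In Nrf1-CKO replicates 1 and 2 the median of complexes II to V was -0.10 and -0.03. No test was made of the difference between the lists.

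**Figure D5:**
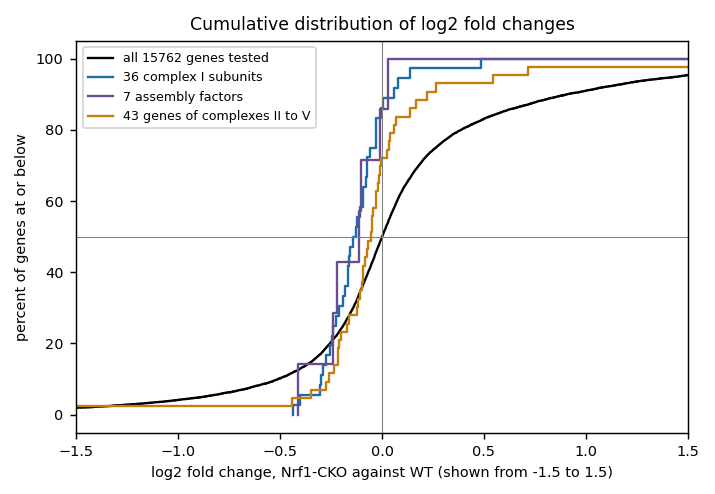
Percentage of genes (y axis) at or below each log2 fold change (x axis, Nrf1-CKO against WT, shown from -1.5 to 1.5) for all genes tested, complex I subunits, assembly factors and complexes II to V. The medians are 0.0007, -0.13, -0.11 and -0.05, and the complex I curves rise steeply within a narrow range.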

How the data were processed

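RNA-seq libraries of E13.5 retinas, 2 WT and 2 Nrf1-CKO, were compared. The authors aligned the reads to mm10 and deposited whole-number read counts per gene, made with HTSeq. The authors also deposited normalized values on a log2 scale, and how these were made is not given in the sources used here. The summary entries of HTSeq (74.0% to 75.0% of all entries, with 54.6% to 58.0% not unique) stayed out of library sizes and tests. The submitters' processing notes also name TopHat2 (2.7.2), DESeq and limma, and the study names Cuffdiff, which works on reads and was not run here.

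Genes were filtered with filterByExpr of edgeR 4.0.16 (R 4.3.3, minimum count 10), scaled with TMM factors (0.992 to 1.02) and tested with the quasi-likelihood test, with genotype as the only term and Benjamini-Hochberg adjustment over all genes tested. SE came from the fold change and the F statistic of each gene. Thresholds were a fold of 1.4 with an adjusted p of 0.2, and an adjusted p of 0.05 without a minimum fold. The scripts were tested on simulated data.

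The deposited log2 values were tested with limma 3.58.1 as an alternative, beside DESeq2 1.42.0, other scalings and filters, the replicate number as a block, and each library left out. Coordinates, lengths and shared windows come from GENCODE vM21 (GRCm38), promoter windows from RefSeq. Full values were given for called members, the core subunits, the 3 lowest and 3 highest of each class, and *Nrf1*, except for 1 of these members, which enters the counts and medians only. The other members were given by range and count. Members with a low adjusted p, an Nrf1 element or shared sequence were added after their values were seen. The members, lists and tests were chosen with earlier results of these data known. The SE follows from the edgeR model, which includes counting error and a spread estimated with information shared across genes. Values after ± are the SD of 2 libraries, and counting error is included there only as far as it enters that spread. The replicates of a genotype differed by more than counting noise, the chi-square divided by the number of genes being 46.7 for WT and 58.8 for Nrf1-CKO. The study describes its RNA-seq experiment as duplicated. It does not state outright whether the 2 libraries of a genotype were separate pools, so that p-values may measure technical spread.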

Additional observations from a re-analysis of the deposited data

How the results depend on the processing

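The counts of called members were at or near 0 and moved by single genes. With DESeq2, with upper-quartile scaling, with at least 10 counts in every library and with the replicate number as a block, 1 subunit (*Ndufa1*) was called. With each library left out in turn, 1 subunit was called each time, *Ndufa1* without WT replicate 1 or Nrf1-CKO replicate 1, *Ndufa8* without WT replicate 2 and *Ndufb8* without Nrf1-CKO replicate 2. Assembly factors called ranged from 0 to 1 (*Ndufaf4* without WT replicate 2). At an adjusted p of 0.05 without a minimum fold, 6 subunits and 1 assembly factor passed. The same replicate numbers did not pair the libraries (correlation of deviations -0.0025), and with the block 9 members passed an adjusted p of 0.05 in place of 7.

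With each library left out, the subunit median lay between -0.20 and -0.08, the assembly factor median between -0.23 and -0.05, and their difference between -0.0299 and 0.0346, above 0 without WT replicate 1 (0.0346), WT replicate 2 (0.0096) or Nrf1-CKO replicate 2 (0.0327). Among the genes described singly with all their alternatives, the sign turned with upper quartiles for *Ndufs1* (0.0320), *Ndufv1* (0.0083), *Ndufaf5* (0.0292) and *Nrf1* (0.0060). It also turned for *Ndufa10* and *Ndufc1*. Upper quartiles moved the median of all genes to 0.0403 and left 32 of 43 members below 0, and 31 were below 0 without Nrf1-CKO replicate 1. With a library left out, the sign turned for *Ndufs1* (-0.0584 to 0.0526), *Ndufs7* (-0.2227 to 0.0895), *Ndufv1* (-0.0966 to 0.0302), *Ndufab1* (-0.2804 to 0.5525), *Ndufaf2* (-0.0653 to 0.1370), *Ndufaf3* (-0.2392 to 0.0243) and *Ndufaf5* (-0.0668 to 0.0566). The causes were not tested. With 2 libraries per genotype the spread is known only roughly, which limits what changes of this small size can show.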
